A study of Mus musculus with 10 samples.

Results

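Rps7 and Acp1 are 2 mouse genes that lie near each other on chromosome 12, the chromosome that also carries Etv1. They were selected on their measured counts, because earlier results of these data had both changing with the double and with the triple knockout. They are 2 of the 28059 gene identifiers listed and of the 18671 genes whose counts were high enough to test, and both passed that filter. Polyadenylated RNA was sequenced from E18.5 mouse brains, taken without the olfactory bulbs, in 10 libraries. The 5 genotypes had 2 libraries each. Control brains were heterozygous for COP1. KO brains lacked COP1, DKO brains lacked cJun as well, TKO brains also lacked ETV1, and QKO brains additionally lacked ETV5, by their labels. COP1 loss is therefore common to KO, DKO, TKO and QKO. The sources used here do not give the Cre driver, litter or sex. As separate litters are not stated, a p-value covers only how far these libraries scatter, and that scatter may be technical. Libraries are numbered by accession, and the numbers pair nothing.

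Rps7 encodes a protein of the small ribosomal subunit. Every cell needs it to build ribosomes, mutations of its human counterpart cause Diamond-Blackfan anaemia, and the protein that is not bound in ribosomes can bind MDM2, the ubiquitin ligase of p53. Acp1 encodes the low molecular weight protein tyrosine phosphatase, a small cytosolic enzyme that removes phosphate from growth factor and ephrin receptors. COP1 is a ubiquitin ligase that marks the transcription factors c-JUN, ETV1 and ETV5 for degradation. C-JUN belongs to the AP-1 factors and ETV1 and ETV5 belong to the ETS factors.

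The sequence just upstream of each gene is shown because the knockouts remove AP-1 and ETS factors. Each line gives the 250 bases before the annotated start, 5′ to 3′ on the gene's own strand, from RefSeq for GRCm38.p6. Both genes are on the minus strand, Rps7 at chr12:28635954-28636203 and Acp1 at chr12:30911613-30911862. Capitals mark matches to the ETS core CCGGAA, the GC box GGGCGG or the CCAAT box, on either strand.
Rps7: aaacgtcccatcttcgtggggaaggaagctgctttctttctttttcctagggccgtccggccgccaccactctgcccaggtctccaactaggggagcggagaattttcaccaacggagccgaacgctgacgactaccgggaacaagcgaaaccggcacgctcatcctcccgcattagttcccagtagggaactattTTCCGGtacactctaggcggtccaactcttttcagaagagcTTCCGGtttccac
Acp1: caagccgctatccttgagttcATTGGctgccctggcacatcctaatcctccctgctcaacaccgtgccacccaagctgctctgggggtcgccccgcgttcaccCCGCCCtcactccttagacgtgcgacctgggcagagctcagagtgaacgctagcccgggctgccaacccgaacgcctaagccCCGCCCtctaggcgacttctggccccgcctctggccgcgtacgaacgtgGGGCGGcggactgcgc

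The Rps7 window held 2 matches to CCGGAA, both on the opposite strand, 54 and 13 bases before the start. Of 32851 windows of the same length, 12% held that motif. The Acp1 window held no CCGGAA, and instead 3 matches to GGGCGG at 147, 65 and 16 bases before the start and 1 to CCAAT at 229 bases. GGGCGG was in 32.7% and CCAAT in 33.8% of all windows. Neither window held the AP-1 motif TGANTCA, present in 6.75% of windows, or TATAAA, present in 12.4%. The windows were rich in G and C, with 55.6% in Rps7 and 66.8% in Acp1. These motifs were searched on both strands, a match is a description of letters, and binding was not measured.

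The libraries held 31996944 to 54594523 counts each. Jun was at 15.0 nRPKM in control and 15.7 in KO, and at 2.27, 1.54 and 1.75 in DKO, TKO and QKO. The nRPKM is the deposited value per gene length, adjusted for library size. A count summed over all exons does not show whether some of them were lost. Cop1 stood at 4.87 nRPKM in control and 3.76 to 4.29 in the 4 knockout groups, and Etv1 at 3.74 in TKO and 4.54 in QKO, above its 2.03 in KO and 2.04 in DKO. Groups are named by their labels throughout. Xist, the RNA that coats the inactive X chromosome of females, was at 1850 CPM (counts scaled to library size) in control 1 and 1460 in DKO 1, and at 0.903 to 1.95 in the other 8 libraries. The 8 neuronal markers summed to 4430 to 4810 CPM in all libraries.

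Rps7 was highest in the DKO brains. It stood at 27.4 nRPKM in DKO 1 and 27.1 in DKO 2, from 1345 and 905 counts. In the other 8 libraries it lay between 9.52 and 14.1 nRPKM, from 433 to 653 counts. The 2 control libraries gave 10.7 and 9.52 nRPKM and the 2 KO libraries 11.4 and 11.0. The TKO libraries gave 11.8 and 14.1, and the QKO libraries 12.03 and 13.29. No library of another genotype came near the DKO libraries, which differed from each other by less than the 2.73% and 3.32% counting error of their own counts. Group means ± SD (n = 2) ran in the order control 10.1 ± 0.846, KO 11.2 ± 0.259, QKO 12.7 ± 0.89, TKO 12.9 ± 1.66 and DKO 27.3 ± 0.207. The QKO and TKO libraries overlapped. The KO libraries lay above the control libraries, as in 24.5% of all genes.

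Acp1 showed the same high value in DKO. It stood at 2.55 nRPKM in DKO 1 and 2.50 in DKO 2, from 419 and 280 counts. The other 8 libraries lay between 1.02 and 1.25 nRPKM, from 146 to 213 counts. Control gave 1.14 and 1.06 nRPKM, KO 1.11 and 1.08, TKO 1.02 and 1.25, and QKO 1.14 and 1.09. All 4 of these genotypes overlapped one another in Acp1, and none reached the DKO libraries. Group means ± SD (n = 2) were 1.09 ± 0.0205 in KO, 1.10 ± 0.052 in control, 1.12 ± 0.035 in QKO, 1.13 ± 0.166 in TKO and 2.53 ± 0.0315 in DKO. Acp1 rests on fewer reads, so that counting error alone came to 6.85% to 8.28% of a library's value outside DKO. In Rps7 it was 3.91% to 4.81% there.

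**Figure D1:**
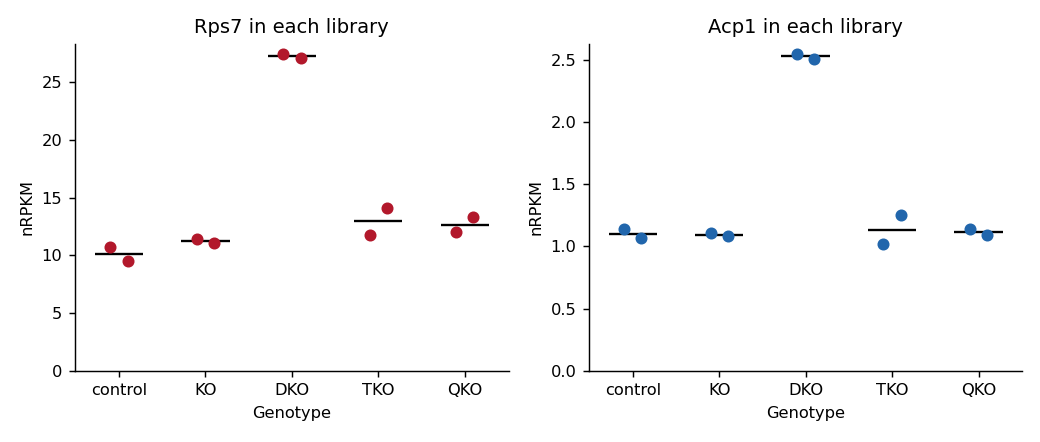
Deposited nRPKM of Rps7 (left) and Acp1 (right) in each of the 10 libraries, by genotype; points are libraries and bars are group means (n = 2). The DKO libraries sit at 27.1 and 27.4 for Rps7 and at 2.50 and 2.55 for Acp1, and all others lie at or under 14.1 and 1.25.

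The values that chose the genes are given as sizes only. From control to DKO, Rps7 was 2.70-fold higher (log2 1.43 ± 0.10 SE) and Acp1 2.30-fold higher (log2 1.20 ± 0.13). From KO to DKO, Rps7 was 2.42-fold higher (log2 1.27 ± 0.10) and Acp1 2.30-fold higher (log2 1.20 ± 0.13). These comparisons share the DKO libraries. Of 18671 genes tested, 72 had a larger log2 change than Rps7 and 118 a larger one than Acp1 against control, and 77 and 100 against KO. Both genes passed an adjusted p of 0.05 here, where edgeR's quasi-likelihood test called 0.423% of all genes in DKO against control and 0.568% in DKO against KO. Without control 1 and DKO 1 together, Acp1 no longer passed in DKO against control, at log2 1.24 ± 0.21. In both genes the DKO libraries lay above the control libraries, as in 18.8% of all genes, and above the KO libraries, as in 23.5%. The choice fixed these outcomes, and nothing is read from them.

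TKO, which adds the loss of ETV1 to DKO, stood near control and KO again. Rps7 was 2.11-fold lower in TKO than in DKO (log2 -1.07 ± 0.10) and Acp1 2.23-fold lower (log2 -1.16 ± 0.13), a comparison in which 0.0911% of genes were called. Both genes were among them, and Acp1 no longer was without TKO 1, at log2 -1.01 ± 0.15. Both TKO libraries lay below both DKO libraries in each gene, as in 21.3% of all genes. The choice of the genes rested on DKO and TKO. Every comparison with TKO is therefore given as a size, and nothing is read from the calls. In TKO against control the log2 difference was 0.36 ± 0.11 for Rps7, with a 95% interval of 0.13 to 0.59, and 0.05 ± 0.13 for Acp1, with an interval of -0.25 to 0.34. EdgeR called 0.15% of all genes there and neither of these 2. The TKO libraries lay above the control libraries in Rps7, as in 23.5% of all genes, and overlapped them in Acp1. In TKO against KO, with 0.332% of genes called, the log2 difference was 0.20 ± 0.11 for Rps7 and 0.04 ± 0.13 for Acp1. The 2 TKO libraries differed most among the groups, at 11.8 and 14.1 nRPKM for Rps7 and 1.02 and 1.25 for Acp1. Without TKO 1 the Rps7 difference from control was 0.49 and without TKO 2 it was 0.22.

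QKO libraries took no part in choosing the genes, and they lay in the range of TKO. Rps7 was 2.16-fold lower in QKO than in DKO (log2 -1.11 ± 0.10) and Acp1 2.27-fold lower (log2 -1.18 ± 0.13). DKO libraries enter that comparison, in which 0.696% of genes were called, so it is given without a test. The QKO libraries lay below the DKO libraries in both genes, as in 17.1% of all genes. Between QKO and TKO, with 0.289% of genes called, the log2 difference was -0.04 ± 0.11 for Rps7, with an interval of -0.27 to 0.20, and -0.02 ± 0.13 for Acp1, with an interval of -0.32 to 0.27.

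Comparisons that contain neither DKO nor TKO could be tested, although the control and KO libraries had also entered the comparisons behind the choice. In KO against control, where 0.734% of all genes were called, neither gene was. Rps7 was 1.12-fold higher in KO (95% interval 0.95 to 1.31, edgeR adjusted p = 0.647) and Acp1 1.00-fold (0.82 to 1.23, edgeR adjusted p = 0.996). In QKO against control, with 0.236% of genes called, Rps7 was 1.25-fold higher (1.06 to 1.47). Its 2 QKO libraries lay above its 2 control libraries, as did 16.8% of all genes, and the edgeR p of 0.0109 became 0.515 after adjustment over all genes. Acp1 was 1.02-fold higher in QKO than in control (0.829 to 1.25, edgeR adjusted p = 0.992). In QKO against KO, with 1.29% of genes called, Rps7 was 1.12-fold higher (0.955 to 1.32, edgeR adjusted p = 0.634), its QKO libraries lying above its KO libraries as in 19.9% of all genes, and Acp1 1.01-fold (0.828 to 1.24, edgeR adjusted p = 0.98). DESeq2 called neither gene in these 3 comparisons. The upper ends of these 95% intervals were at most 1.47-fold for Rps7 and 1.25-fold for Acp1.

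The 2 DKO libraries also stood apart in markers of red blood cells. The 5 erythroid markers that could be tested of 6 (Hbb-bt was not) summed to 604 and 768 CPM in DKO, against 289 to 339 in control, 215 to 260 in KO, 324 in both TKO libraries and 328 to 422 in QKO. Hba-a1, an alpha globin gene with a near-identical neighbour copy, stood at 146 and 185 nRPKM in DKO and at 61.0 to 94.8 elsewhere. It rose in DKO against KO by log2 1.35 ± 0.13 (edgeR adjusted p = 0.000602) and fell in TKO against DKO by 1.10 ± 0.13 (edgeR adjusted p = 0.00633). The latter call was lost without TKO 1 (log2 -1.08, adjusted p = 0.193) or TKO 2 (-1.13, 0.118). The part of this in the level of Rps7 or Acp1 was not tested. In whole tissue, more cells of a type and more RNA per cell cannot be told apart. Xist was high in DKO 1 and not in DKO 2, as it was high in control 1 and not in control 2, and it was low in KO, TKO and QKO. DKO 1 and DKO 2 had 27.4 and 27.1 nRPKM of Rps7 and 2.55 and 2.50 of Acp1. The part of sex in these levels was not tested. Without control 1 and DKO 1, the log2 difference between DKO and KO was 1.28 for Rps7 and 1.19 for Acp1, and between DKO and control 1.51 for Rps7 and 1.24 for Acp1.

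Glial markers differed as well. The 4 oligodendrocyte lineage markers summed to 344 to 371 CPM in DKO, above the 234 to 266 of control and below the 451 to 520 of KO, with 324 to 348 in TKO and 211 to 236 in QKO. Of these, Olig2, a transcription factor of that lineage, rose in DKO against control by log2 0.78 ± 0.09 (edgeR adjusted p = 0.00249). That call was lost without control 1 (0.72, adjusted p = 0.0511) and without control 1 and DKO 1 together (0.60, 0.098). The 6 astrocyte and radial glia markers summed to 1320 to 1340 CPM in DKO, 1290 to 1360 in control, 1520 to 1600 in KO, 1260 to 1340 in TKO and 1180 to 1190 in QKO. Their members Gfap and Vim, both intermediate filament genes, fell in DKO against KO by 1.96 ± 0.26 and 0.77 ± 0.07 on the log2 scale (edgeR adjusted p = 0.00546 and 0.000667). Both glial sums were highest in KO. Meningeal markers summed to 751 to 867 CPM in DKO, 903 to 907 in control and 781 to 849 in KO. Skeletal muscle markers summed to 5.56 to 6.64 CPM in DKO and 4.70 to 5.04 in control and KO. No marker of either list was called in DKO against control or DKO against KO, where edgeR called 0.423% and 0.568% of all genes. The part of these in the level of Rps7 or Acp1 was not tested.

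The proportion of the 2 genes to each other was then described, from their counts. The count of Rps7 was 2.67 to 2.81 times that of Acp1 in control, 3.05 to 3.07 times in KO and 3.21 to 3.23 times in DKO. It was 3.36 to 3.45 times in TKO and 3.14 to 3.63 times in QKO. The lowest ratio, 2.67 in control 2, had an exact 95% interval of 2.23 to 3.22, and the highest, 3.63 in QKO 2, one of 3.04 to 4.35. These intervals cover counting error only, and they overlap. Both control libraries lay below all 8 knockout libraries. How often other pairs of genes show such an order was not computed, and nothing is read from it. As the genes were chosen for changes with DKO and TKO, nothing is read from the ratio in those groups either. The Acp1 gene model of the deposited values is 3.35 times as long as that of Rps7, so per length the ratio was larger, 8.96 to 12.2.

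**Figure D2:**
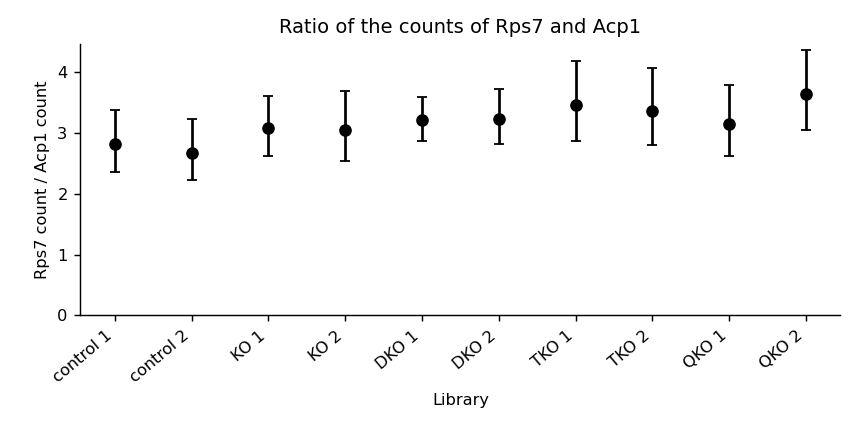
Count of Rps7 divided by the count of Acp1 in each of the 10 libraries, with exact 95% intervals for counting error as bars. The ratio runs from 2.67 in control 2 to 3.63 in QKO 2, and the DKO libraries, at 3.21 and 3.23, sit inside that range.

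Across the 10 libraries each gene was the one whose log2 level was most like the other's, with a Pearson r of 0.97. Over the 8 libraries other than DKO the r was 0.558, so that most of the likeness lies in the DKO libraries. Both genes were chosen for changes with DKO and TKO, which favoured this likeness, and nothing is read from it. After Acp1, the levels most like those of Rps7 were of Hba-a1 (r = 0.948), an unnamed identifier (ID100862145, 0.946), the GTPase gene Rras2 (0.946) and Calb2 (0.941), a calcium-binding protein of interneurons. After Rps7, those most like Acp1 were of Rras2 (0.95), the lysosomal gene Hgsnat (0.946), ID100862145 (0.929) and Hba-a1 (0.92). The sizes differed: Rras2 had a mean of 18.1 nRPKM in DKO and 15.8 elsewhere, and Hgsnat 10.9 and 9.82. The kinase gene Melk ran most opposite to Rps7 (r = -0.963), with 1.82 to 1.94 nRPKM in DKO and 2.23 to 2.48 elsewhere, followed by Fmnl3 (-0.942) and Ambra1 (-0.936). For Acp1 these were Pou6f1 (-0.929), Eme2 (-0.928) and Melk (-0.923). These genes lie on other chromosomes where RefSeq places them. All these points share their libraries, and genes picked for likeness over 10 points are a description.

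The neighbours on the chromosome were examined next, in gene order from RefSeq. Of 632 tested genes on chromosome 12, 10 lay between Rps7 and Acp1. They included Adi1, an enzyme of methionine salvage, Trappc12, part of a vesicle tethering complex, and Myt1l, a transcription factor of neurons. Etv1 came 49 tested genes after Rps7 and 38 after Acp1. Of the 30 other genes within 10 places outside the pair or between them, none was called in DKO against control or in DKO against KO by edgeR or DESeq2. EdgeR called 0.423% of all genes in DKO against control and 0.568% in DKO against KO, so a list this short could well hold none. At an unadjusted p under 0.05, edgeR had 2 lower and none higher in the former and 2 higher and 3 lower in the latter. Their median log2 change was -0.01 in DKO against control and 0.03 in DKO against KO, with -0.0 and -0.002 over all genes. The extremes were Slc26a3, at -0.85 and -0.89, and Slc26a4 at 0.62 and Rsad2 at 0.42. None of these passed the test.

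Adi1, the second tested gene after Rps7, was lowest where Rps7 and Acp1 were highest. Its nRPKM was 9.88 and 9.91 in control, 8.99 and 8.84 in KO, 8.02 and 6.27 in DKO, 10.5 and 9.99 in TKO, and 11.0 and 11.9 in QKO. The DKO libraries were below all others, and the share of all genes with that order was not computed. The rise from DKO to QKO was log2 0.67 ± 0.11 (edgeR adjusted p = 0.0212), while DKO against control, at log2 -0.46 ± 0.11, did not pass (edgeR adjusted p = 0.168). The call in QKO against DKO was lost without DKO 2 (log2 0.51, edgeR adjusted p = 0.0648) and without QKO 2 (0.61, 0.0602). With only the DKO and QKO libraries in the fit it was lost as well (0.67, 0.212). Id2, an inhibitor of helix-loop-helix factors, was the other neighbour called, with log2 0.33 ± 0.07 in QKO against KO (edgeR adjusted p = 0.0439). That call was lost in 10 of 16 alternatives, with log2 values of 0.26 to 0.34 and edgeR adjusted p of 0.0508 to 0.238, among them leaving out KO 1, KO 2, QKO 2 or either control or TKO library. Myt1l stood at 51.7 to 60.8 nRPKM in all 10 libraries. Trappc12 was at 10.6 to 10.7 nRPKM in DKO, 10.5 to 10.7 in control, and 10.21 and 10.05 in KO. It was lower in TKO, at 8.55 to 8.72, and in QKO, at 8.8 to 9.21. Its log2 difference was 0.01 ± 0.06 between DKO and control. It was -0.29 ± 0.06 in TKO against control (edgeR adjusted p = 0.115) and -0.30 ± 0.06 in TKO against DKO (edgeR adjusted p = 0.124). Trappc12 had no call in the fit of all 10 libraries by edgeR, and 1 of 16 alternatives called it in TKO against control.

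Between the window and Etv1 lay 27 more tested genes, and edgeR and DESeq2 called none of them in any of the 10 comparisons. Of all genes, edgeR called 0.0911% to 1.29% in a comparison, so a list of 27 could well hold none. At an unadjusted p under 0.05, edgeR had 0 to 4 of the 27 in a comparison. Cdhr3 had the highest log2 change in DKO against control, 1.13, without passing. Etv1 itself did not follow the pair. It stood at 1.98 and 2.11 nRPKM in DKO and 1.76 and 2.29 in KO, a log2 difference of 0.01 ± 0.12 (edgeR adjusted p = 0.979). It fell in DKO against control by 1.26 ± 0.11 (edgeR adjusted p = 0.000919) and rose in TKO against DKO by 0.88 ± 0.12 (edgeR adjusted p = 0.0159), the direction opposite to Rps7 and Acp1 in both. The rise was lost without DKO 1 (0.83, adjusted p = 0.0549), TKO 1 (0.85, 0.259) or TKO 2 (0.89, 0.192), and without control 1 and DKO 1 together (0.83, 0.0646).

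**Figure D3:**
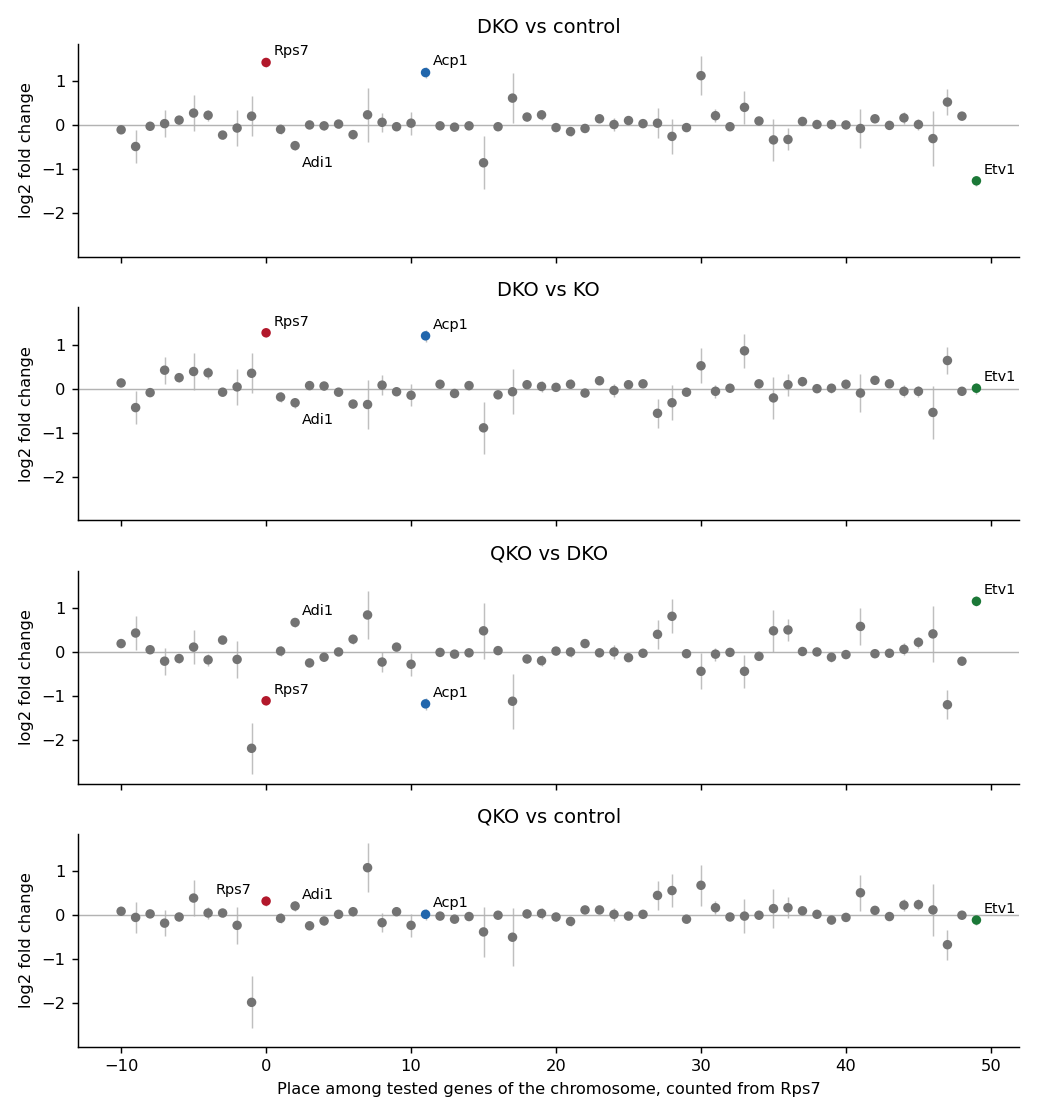
Log2 fold change in 4 comparisons (panels) of tested genes along chromosome 12, placed by order from 10 places outside Rps7 to Etv1, with SE as vertical lines. Rps7 and Acp1, chosen for their change with DKO, sit at 1.43 and 1.20 in DKO vs control. Adi1, between them, is at -0.46, the other genes between them are nearer 0, and Etv1 is at -1.26.

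Rps7 was then set among the other ribosomal proteins, which are made in matched amounts. All 31 other genes of the small subunit list and all 47 of the large subunit list could be tested. In DKO against KO their median log2 changes were 0.05 and 0.03, and in DKO against control 0.05 and 0.04, beside 1.27 and 1.43 for Rps7. As Rps7 was chosen for its change with DKO, nothing is read from its distance from the others there. No other ribosomal protein gene was called in these 2 comparisons by edgeR or DESeq2. Of all genes, edgeR called 0.568% in DKO against KO and 0.423% in DKO against control. At an unadjusted p under 0.05, edgeR had 1 of the 78 in DKO against KO and 6 in DKO against control. Mrps7, the mitochondrial ribosomal protein of a like name, stood at 21.0 to 23.4 nRPKM in DKO and 19.6 to 22.5 elsewhere.

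Other members of the lists that varied did so in patterns of their own. Rps18 was at 7.25 and 3.41 nRPKM in DKO, 16.7 and 8.95 in control, and 17.1 and 17.8 in QKO. It rose in QKO against DKO by log2 1.67 ± 0.32 (edgeR adjusted p = 0.0433), the reverse of Rps7. The call was lost in 8 of 16 alternatives, with log2 values of 1.27 to 1.69 and edgeR adjusted p of 0.0605 to 0.137, among them leaving out DKO 2 or either KO, TKO or QKO library. Rpl29 was at 15.9 and 8.10 nRPKM in KO and 1.72 and 2.09 in QKO. It fell in QKO against KO by 2.67 ± 0.55 on the log2 scale (edgeR adjusted p = 0.0439), a call lost without any 1 of the control, KO or QKO libraries, where it fell by 2.09 to 3.06 (adjusted p 0.0564 to 0.334). Over the 10 libraries the highest value was 9.51 times the lowest in Rpl29, 5.9 times in Rps18 and 2.88 times in Rps7, the widest ranges of the 79 genes. The range of Rps7 was set by the DKO libraries, on which it was chosen, so nothing is read from its place. In its other 8 libraries it ran from 9.52 to 14.1 nRPKM.

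**Figure D4:**
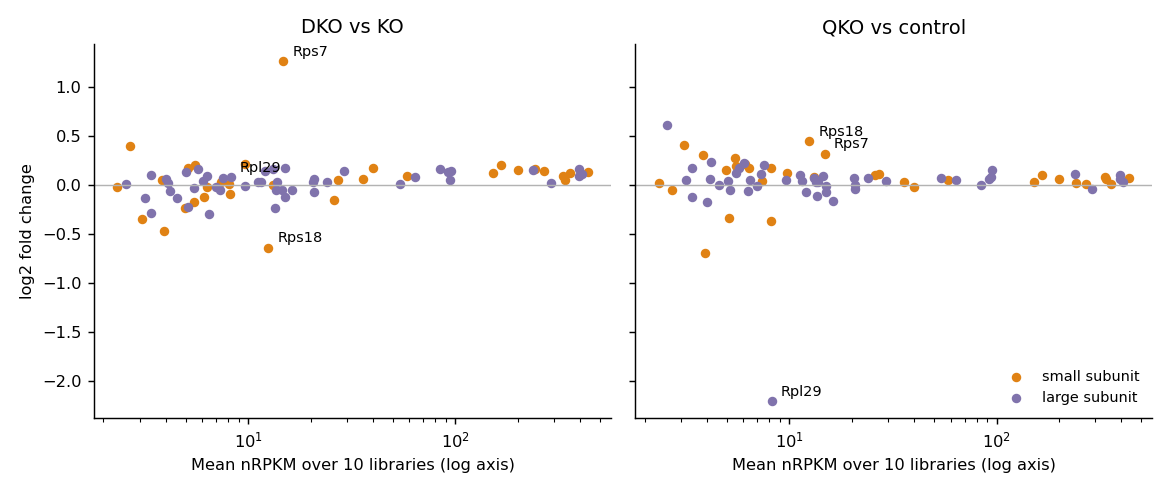
Log2 fold change of 32 small subunit and 47 large subunit ribosomal protein genes against their mean nRPKM over 10 libraries (log axis), in DKO vs KO (left) and QKO vs control (right). Rps7, chosen for its change with DKO, lies at 1.27 in DKO vs KO. In QKO vs control it lies at 0.32, under Rpl24 at 0.61 and Rps18 at 0.45, and Rpl29 is at -2.21.

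The level of Rps7 lay near the middle of the small subunit list. Its mean over the 10 libraries was 14.8 nRPKM, place 18 of 32 from the lowest, in a list with 2.34 in Rps29 at its lower end and a median of 12.8. The deposited counts hold uniquely aligned reads only, per the file headers, and ribosomal protein genes have many processed copies in the genome. Of the 1070 words of 75 letters, the read length, in the Rps7 transcripts of GENCODE M21, 514 (48.0%) also occurred in transcripts of 11 other genes, 10 of them pseudogenes. The pseudogene Gm6472, named Rps7-ps3 by RefSeq, shared the most. For Acp1 it was 890 of 3192 words (27.9%), in 4 other genes. These were the neighbour Alkal2 (14.3%) and 3 pseudogenes, among them Gm1866 (5.45%), named Acp1-ps. Alkal2 stood at 0.516 to 0.572 nRPKM in DKO and 0.39 to 0.69 elsewhere. The RefSeq copies Rps7-ps1, Rps7-ps2, Rps7-ps3 and Gm1866 were not analysed here. A processed copy that yields no transcript in this annotation is not counted, so copies in the genome can be missed. Words shared with the neighbour Alkal2 may lie where the 2 gene models overlap, which was not checked.

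Across the 79 ribosomal protein genes a higher shared fraction went with a lower level per length. The Spearman rho was -0.53 over all 79, -0.67 in the small and -0.35 in the large subunit list, over genes of the same libraries, as a description. The 14 genes with a mean of 100 nRPKM or more had a median of 10.1% of words shared and the other 65 a median of 37.8%. Rps7 was exceeded by 26 of the 79. Rps18 and Rpl29, the genes with the widest ranges over the libraries, had 67.7% and 28.2%. Of the 50 of 58 chromosome neighbours that could be matched, 40 shared no word with another gene and 3 shared words with pseudogenes. The part of shared reads in the DKO values was not tested.

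**Figure D5:**
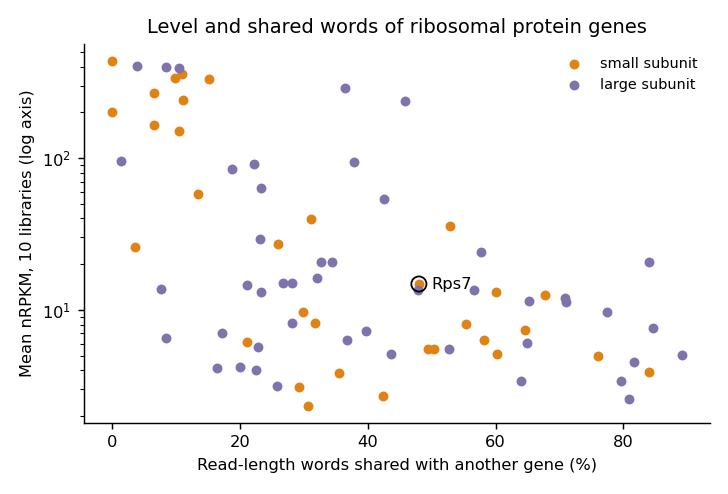
Mean nRPKM over 10 libraries (log axis) against the percentage of 75-letter transcript words that occur in another gene, for 32 small and 47 large subunit ribosomal protein genes. Rps7 (circled) lies at 48.0% and 14.8 nRPKM, and the genes above 100 nRPKM lie at or under 45.9%.

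Genes that act with the products of the pair were examined from lists. Of 19 genes of the p53 pathway, which MDM2 restrains, 18 could be tested, all but Gdf15. None was called by edgeR in any of the 10 comparisons, in which it called 0.0911% to 1.29% of all genes. DESeq2 made 1 call over the 10, and at an unadjusted p under 0.05 edgeR had 1 to 4 in each. The p53 list had a median log2 change of 0.03 in DKO against KO and 0.02 in DKO against control. Cdkn1a, the cell cycle inhibitor that p53 induces, was at 20.9 and 22.8 nRPKM in DKO and 17.8 to 20.2 elsewhere. Its log2 difference from KO was 0.20 ± 0.07 (edgeR adjusted p = 0.27). Mdm2 was at 12.2 and 15.2 nRPKM in DKO and 13.6 to 16.7 elsewhere. The DKO libraries stood above all others in Cdkn1a and overlapped them in Mdm2. What share of all genes stood above all others in DKO was not computed, and nothing is read from Cdkn1a.

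For Acp1, 18 of 21 other acid phosphatases and cytosolic tyrosine phosphatases could be tested, all but Acp3, Acp4 and Acp7. None was called by edgeR in any comparison, beside 0.0911% to 1.29% of all genes. DESeq2 called 1 over the 10, and edgeR had 1 to 4 at an unadjusted p under 0.05. Acp2, the lysosomal acid phosphatase, was at 15.9 to 17.1 nRPKM in all libraries. Ptpn11, the phosphatase SHP2, was at 33.5 to 38.6. Ptpn2 had a log2 difference of 0.58 ± 0.11 in TKO against control (edgeR adjusted p = 0.0924) and -0.04 ± 0.11 in DKO against KO. The 8 genes of known Acp1 substrates, such as Pdgfrb, Epha2 and the focal adhesion kinase Ptk2, could all be tested. None was called by edgeR or DESeq2 in any comparison, where edgeR called 0.0911% to 1.29% of all genes. At an unadjusted p under 0.05, edgeR had 0 or 1. Ptk2 differed by log2 0.02 ± 0.07 between DKO and KO.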

How the data were processed

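Libraries were prepared with a TruSeq kit starting from 1 µg of total RNA and sequenced in paired 75 bp reads, 5 libraries to a lane, per the labels. The submitters' processing notes name GSNAP and build NCBIM37. Which annotation release was used, whether strand was considered and how shared reads were treated is not given here. The deposited count is the number of uniquely aligned reads per gene model, per the file headers, and the deposited nRPKM is an RPKM that a size factor adjusts, per the file headers. Symbols, gene order and promoters came from RefSeq for GRCm38.p6, which named 24998 identifiers (89.1%). The build differs, so its order was used only for which genes neighbour each other.

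Counts of all 10 libraries were fitted with edgeR 4.0.16 (R 4.3.3; TMM, filterByExpr, quasi-likelihood test, 5 group means, 5 residual degrees of freedom, common biological coefficient of variation 0.0821). P-values were Benjamini-Hochberg adjusted over the 18671 genes that passed the filter, 9388 being set aside, and a gene was called under 0.05. The SE is the log2 fold change divided by the root of the F statistic. For counts at an unadjusted p under 0.05, the share of all genes was not computed. Alternatives were DESeq2 1.42.0, RLE scaling, no filter, only the groups compared, Xist as a covariate, and leaving out libraries. In simulated data for DKO against KO (18498 genes), 174 of 200 genes changed 2-fold were recovered, with 9 false calls. The 2 libraries of each group differed beyond counting noise (chi-square per degree of freedom 7.51 to 19.5), so none was deposited more than once.

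The 2 genes and all lists were chosen with earlier results of these data known. By rule, the named genes are the 2 members, Etv1, Jun, Cop1, called list and neighbour genes, and the 5 highest and 3 lowest correlations of log2 CPM. Shared words were exact 75-letter matches on either strand. Mrps7, Myt1l, Trappc12, Alkal2, Slc26a3, Slc26a4, Rsad2, Cdhr3, Rpl24 and the p53, phosphatase and substrate genes were named after their values were seen.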

Additional observations from a re-analysis of the deposited data

How the results depend on the processing

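Each value was recomputed under 16 alternatives. Rps7 and Acp1 passed the threshold in none of them in KO vs control, QKO vs control or QKO vs KO, with edgeR or DESeq2 adjusted p of 0.347 to 1.0 for Rps7 and 0.917 to 1.0 for Acp1. Their log2 differences in DKO vs control and DKO vs KO stayed at 1.22 to 1.52 for Rps7 and 1.16 to 1.25 for Acp1. Acp1 did not pass the threshold in every alternative in DKO vs control or in TKO vs DKO. Comparisons with DKO or TKO chose the genes, so nothing is read from the members' calls in them. No paired analysis was possible because the labels carry no replicate numbers, and numbers in accession order pair nothing. Summing counts with those of named gene copies was not run, since those identifiers were not analysed here.

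Acp1 in KO vs control, 0.00, crossed to -0.01 with DESeq2 and with RLE scaling, to -0.00 with no filter and with only the groups compared, and to -0.05 to 0.05 when libraries were left out in turn. Its QKO vs control value then ran from -0.02 to 0.08 and QKO vs KO from -0.00 to 0.07. Leaving out a TKO library moved TKO vs control (Rps7 0.22 to 0.49, Acp1 -0.11 to 0.19), TKO vs KO (0.07 to 0.34, -0.11 to 0.20), TKO vs DKO (-1.22 to -0.95, -1.32 to -1.01) and QKO vs TKO (-0.16 to 0.11, -0.17 to 0.13). The cause was not tested.

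Counts of other genes called were 0 or 1 and moved by 1 or 2. Leaving out libraries gave 0 to 1 chromosome neighbours (window genes) in DKO vs control, TKO vs DKO, QKO vs DKO and QKO vs KO. It gave 0 to 1 small subunit genes in DKO vs control, QKO vs control, QKO vs KO, TKO vs DKO and QKO vs DKO, and 0 to 1 large subunit genes in TKO vs KO, QKO vs KO and QKO vs DKO. With DESeq2, 1 neighbour was called in TKO vs DKO and 1 in QKO vs TKO, 1 small subunit gene in TKO vs DKO and 1 large subunit gene in QKO vs DKO. With no filter, 1 neighbour was called in each of DKO vs control, DKO vs KO, TKO vs KO and TKO vs DKO. The same setting called 1 small subunit gene in each of DKO vs control, QKO vs control, TKO vs KO, QKO vs KO and TKO vs DKO, and 1 large subunit gene in QKO vs control and in QKO vs DKO. With only the groups compared, neighbours numbered 1 in KO vs control, 2 in TKO vs control, 0 in QKO vs KO and 0 in QKO vs DKO. Small subunit genes then numbered 1 in TKO vs control, 2 in TKO vs KO, 2 in QKO vs KO, 1 in TKO vs DKO and 0 in QKO vs DKO, and large subunit genes 1 in QKO vs control and 1 in QKO vs DKO. Without the 2 libraries with high Xist, neighbours numbered 0 in QKO vs KO and 1 in TKO vs DKO, and 1 large subunit gene was called in QKO vs DKO. Small subunit genes numbered 1 in KO vs control, 1 in DKO vs KO, 2 in TKO vs KO, 2 in QKO vs KO and 1 in TKO vs DKO. With Xist as covariate the small subunit counts were the same, with 1 in DKO vs control as well, and neighbours numbered 0 in QKO vs KO.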
